A study of Mus musculus with 5 samples.

Results

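The aminoacyl-tRNA synthetases were examined as transcripts of 36 genes, 20 for cytosolic enzymes and 16 for mitochondrial ones, out of 22267 genes in the table. Members were chosen by name. The RefSeq transcripts of each listed gene were found by accession, and their FPKM (sequenced fragments per length of transcript and per depth of library) was summed per gene. All 36 were found. RNA of mouse E14 embryonic stem cells (strain given as C57BL/6) gave 5 libraries, a single one for each of 5 groups. The library called HP with LIF came from cells that the labels describe as overexpressing hexokinase 2 (Hk2) and pyruvate kinase M2 (Pkm2), grown with leukemia inhibitory factor (LIF), the cytokine that keeps mouse embryonic stem cells undifferentiated. HP cells were also sampled after 24 hours without LIF followed by its return, and after 40 days without LIF. Normal E14 cells were sampled after the same 24 hour withdrawal and with LIF. The labels state neither how the genes were introduced nor whether the HP cells are 1 clone.

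An aminoacyl-tRNA synthetase joins an amino acid to its transfer RNA, so every protein a cell makes depends on the whole set. For most amino acids, mammalian cells carry separate enzymes for the cytosol and for mitochondria, all encoded in the nucleus. Gars and Kars each give both forms from the same gene. Several cytosolic enzymes sit together in a multisynthetase complex held by the scaffold proteins Aimp1, Aimp2 and Eef1e1. Uncharged transfer RNA activates the kinase GCN2, which raises the translation of the transcription factor ATF4, and ATF4 in turn activates amino acid transporters, amino acid synthesis enzymes and many cytosolic synthetase genes.

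Depth was estimated from the smallest values at 34700000 to 39800000 fragments per library. With a single library for each group, the spread between replicates is unknown, and pairs of libraries are compared by size without a test. Hk2 stood at 98.6, 59.0 and 29.0 FPKM in HP cells with LIF, after 24 hours and at 40 days, against 49.7 FPKM after withdrawal and 76.2 FPKM with LIF in normal cells. Pkm lay between 495 and 611 FPKM in all 5 libraries. The labelled overexpression is therefore not visible as a 2-fold difference in either gene, and HP is used below as a label only. All 5 stem cell markers examined were above 1 FPKM in every library. Their summed level, most of it Pou5f1, was 2098, 1883 and 1260 FPKM in the HP libraries with LIF, after 24 hours and at 40 days, against 1845 and 2132 FPKM in normal cells after withdrawal and with LIF. Nanog stood at 183, 54.5 and 29.6 FPKM in the HP libraries, against 59.3 FPKM after withdrawal and 150 FPKM with LIF in normal cells. Zfp42 stood at 278, 128 and 40.9 FPKM in the HP libraries, against 118 and 266 FPKM in the normal ones. Both were thus lower after the 24 hour withdrawal in each cell type and lowest at 40 days. Summed FPKM of 9 endoderm markers was 104 at 40 days, with 5 of them at 1 FPKM or more, and between 3.03 and 5.15 in the other 4 libraries, with 1 or 2 at that level. Afp was listed at 0 in all 5 libraries and Sox17 at 40 days. The sum of 7 trophoblast markers was 79.3 FPKM at 40 days, of which Krt18 held 54.2 and Krt8 21.6, and between 9.39 and 29.2 FPKM in the other libraries. Elf5 was listed at 0 in all libraries but the 40 day one, where it stood at 0.096 FPKM. The sum of 9 fibroblast markers was 12.0 FPKM at 40 days, with Acta2 at 6.77 FPKM, and between 1.52 and 4.79 FPKM elsewhere. The sum of 7 neural markers was 53.5, 7.03 and 26.8 FPKM in the HP libraries and 4.92 and 36.9 FPKM in normal cells after withdrawal and with LIF, and Tubb3 alone stood at 48.4, 3.27 and 16.8 FPKM and at 0 and 31.7 FPKM. The part of Nanog, Zfp42 and the neural markers in the withdrawal ratios given below was not tested.

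The cytosolic synthetases were abundant transcripts. Of the 20, 14 stood at 50 FPKM or more in every library, and the class median was 67.3, 69.4 and 80.5 FPKM in HP cells with LIF, after 24 hours and at 40 days, against 65.0 FPKM after withdrawal and 74.0 FPKM with LIF in normal cells. The median of mean FPKM over all 9590 genes that averaged at least 1 FPKM was 9.54. Kars, the lysyl enzyme, was highest on average, at 206, 228 and 144 FPKM in the HP libraries and 215 and 207 FPKM in the normal ones. Gars, the glycyl enzyme, stood at 160, 146 and 254 FPKM in HP cells with LIF, after 24 hours and at 40 days, and at 137 and 146 FPKM in normal cells after withdrawal and with LIF. Its 40 day library was the highest of all values in the class. Nars, the asparaginyl enzyme, followed at 155, 129 and 213 FPKM in the HP libraries and 114 and 137 FPKM in the normal ones.

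At the low end, Wars, the tryptophanyl enzyme, stood at 45.0, 44.4 and 48.7 FPKM in the HP libraries and 36.0 and 44.6 FPKM in normal cells after withdrawal and with LIF. Cars, the cysteinyl enzyme, stood at 37.8, 33.4 and 58.8 FPKM in the HP libraries and 31.3 and 25.4 FPKM in the normal ones, highest at 40 days. Sars, the seryl enzyme, was the only cytosolic member whose mean lay below the highest mitochondrial mean, at 13.6, 9.95 and 13.7 FPKM in the HP libraries and 19.1 and 8.84 FPKM in the normal ones. It has 2 transcripts in the table, NM_001204979 and NM_011319. At 40 days the first was listed at 0 and the second held the whole 13.7 FPKM, while in the other 4 libraries the second was listed at 0. Since Cufflinks can list 0 where its estimate failed, neither the low level nor the switch of transcript is taken as more than what is listed. The steadiest cytosolic member was Rars, the arginyl enzyme, whose 5 values lay between 85.6 and 92.5 FPKM, a ratio of 1.08 from lowest to highest. The other 13 cytosolic means lay between 54.0 FPKM for Yars and 97.8 FPKM for Farsa, with Aars, Dars, Eprs, Farsb, Hars, Iars, Lars, Mars, Qars, Tars and Vars among them.

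The mitochondrial synthetases were lower transcripts. None reached 50 FPKM in any library. Vars2, for valine, carries a hyphen in place of a value in HP cells after 24 hours, so class medians, counts and fits use the other 15. Their median was 11.6, 10.8 and 9.67 FPKM in the HP libraries with LIF, after 24 hours and at 40 days, against 11.9 FPKM after withdrawal and 8.14 FPKM with LIF in normal cells. The cytosolic median was thus 5.80, 6.42 and 8.33 times the mitochondrial one in the HP libraries and 5.46 and 9.10 times in the normal ones. Ranked by mean FPKM among the 9590 genes, the cytosolic members had a median percentile of 92.8 and the mitochondrial ones of 51.9.

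Yars2, for tyrosine, was the highest mitochondrial member on average. It stood at 33.3, 35.6 and 24.7 FPKM in the HP libraries and 38.9 and 36.9 FPKM in normal cells after withdrawal and with LIF. These sums include a non-coding transcript at 3.78 to 5.41 FPKM. Tars2, for threonine, stood at 27.0, 22.6 and 24.0 FPKM in the HP libraries and 19.7 and 26.1 FPKM in the normal ones, and Rars2, for arginine, at 21.9, 23.7 and 24.0 FPKM and at 20.4 and 19.4 FPKM. The lowest members were Pars2, for proline, at 3.27, 3.14 and 3.64 FPKM in the HP libraries and 1.52 and 4.26 FPKM in the normal ones, Nars2, for asparagine, at 2.003, 3.02 and 1.72 FPKM and at 1.66 and 1.10 FPKM, and Wars2, for tryptophan, at 1.497, 1.59 and 1.91 FPKM and at 1.46 and 0.605 FPKM. The lowest of these values, Wars2 in normal cells with LIF, corresponds to about 101 fragments if the longest annotated transcript is taken, so counting error alone does not leave it near 0. Between these ends lay Iars2, Lars2, Sars2, Aars2, Cars2, Hars2, Ears2, Fars2 and Mars2, with means from 20.4 FPKM for Iars2 to 4.60 FPKM for Mars2.

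**Figure D1:**
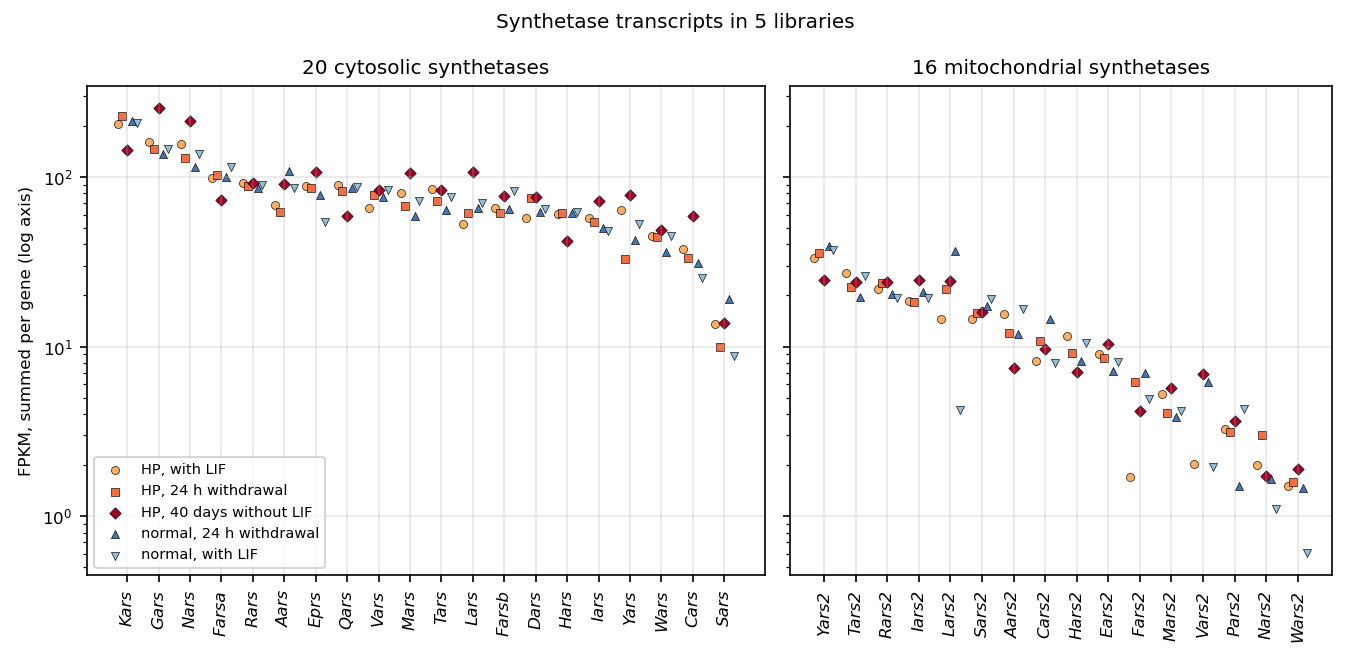
FPKM per gene (log axis) of the 20 cytosolic and 16 mitochondrial synthetases, ordered by mean, with 1 point per library. Apart from Sars, every cytosolic mean lies above the highest mitochondrial mean, that of Yars2 at 33.9 FPKM, and Lars2 is spread widest, from 4.23 to 36.6 FPKM.

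Set against each other by amino acid, the cytosolic gene was higher than its mitochondrial counterpart in every library for 14 of the 16 pairs with all 5 values. Vars was higher than Vars2 in the 4 libraries with a value, at 12.1 to 42.9 times. The ratio was widest for asparagine, where Nars stood 42.8 to 124 times above Nars2, and narrow for isoleucine, where Iars stood 2.40 to 3.10 times above Iars2. The exceptions were serine, where Sars stood at 0.464 to 1.09 times Sars2, and tyrosine, where Yars stood at 0.927 to 3.14 times Yars2. Yars was the lower of the pair only in HP cells after 24 hours, and there only because a non-coding Yars2 transcript is in the sum. With the coding transcript alone, Yars2 stood at 30.8 FPKM in that library, below Yars at 33.0 FPKM. The most even pair was threonine, at 2.92 to 3.47 times, and the most uneven leucine, where Lars over Lars2 was 3.65, 2.80 and 4.39 in the HP libraries and 1.79 and 16.5 in normal cells after withdrawal and with LIF.

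Libraries of this kit do not mark strand, per the kit named in the labels, so a gene and a partner on the other strand were not separated. In the mm9 annotation, 15 of the 36 members overlap another annotated gene, among them Mars with Ddit3 and Hars with Hars2, which lie head to head on chromosome 18. Of the 49 transcripts of the members, 6 were listed at 0 in every library. Kars had 2 transcripts above 0, and the minor one held 9.84% and 10.9% of Kars in HP cells with LIF and after 24 hours, 0 at 40 days, and 10.5% and 10.7% in normal cells after withdrawal and with LIF.

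The difference between HP and normal cells with LIF was small for most synthetases. Ratios below are log2 ratios of FPKM + 1, which understate the change of low genes. The median ratio was 0.045 over 20 cytosolic and 0.047 over 15 mitochondrial members, against -0.044 over all 9590 genes. Of the 35 members, 1 was at least 2-fold higher and 1 lower, while 9.43% of all genes differed 2-fold in either direction. The higher one was Lars2, the mitochondrial leucyl enzyme on chromosome 9 from 123276058 to 123371782 (mm9, plus strand), at 14.6 FPKM in HP cells against 4.23 FPKM in normal cells (1.57). The lower one was Fars2, the mitochondrial phenylalanyl enzyme on chromosome 13 from 36209280 to 36629461 (plus strand), at 1.71 FPKM in HP cells against 4.93 FPKM in normal cells (-1.13). At a 1.5-fold size, chosen after the values were seen, Eprs, the joint glutamyl and prolyl enzyme (88.3 FPKM in HP cells against 54.1 FPKM in normal cells), and Wars2 (1.497 against 0.605 FPKM) were also higher. That makes 4 of 35 members, while 20.1% of all genes differed by 1.5-fold.

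After the 24 hour withdrawal no member differed 2-fold between HP and normal cells, while 9.37% of all genes did. Median ratios were 0.067 for cytosolic and 0.064 for mitochondrial members, against -0.021 over all genes. At 1.5-fold, 5 of 35 members differed and 20.2% of all genes did. Pars2 (3.14 FPKM in HP cells against 1.52 FPKM in normal cells) and Nars2 (3.02 against 1.66 FPKM) were higher. Sars (9.95 against 19.1 FPKM), Aars, the alanyl enzyme (62.5 against 109 FPKM), and Lars2 (21.8 against 36.6 FPKM) were lower. Lars2 was thus higher in HP cells in one culture and lower in the other, and so was Sars, at 13.6 FPKM in HP cells against 8.84 FPKM in normal cells with LIF.

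An additive limma fit over the 4 libraries of cell type by culture gave the average difference between HP and normal cells. None of the 35 members passed an adjusted p of 0.05, and none was under an unadjusted p of 0.05. Over all 9590 genes limma called 0 genes, with 918, or 9.57%, at an unadjusted p under 0.05. Nars2 came closest, higher in HP cells by 0.55 ± 0.16 (SE, 4 libraries, limma adjusted p = 0.520), and Aars was next, lower at -0.56 ± 0.16 (limma adjusted p = 0.520). Nars2 stood higher in HP cells in both cultures and Aars lower in both, a likeness that the fit favours and that is not separate support. With 1 residual degree of freedom these p-values measure agreement over 2 cultures only.

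The 24 hour withdrawal in normal cells went with higher Lars2 and Sars and lower Pars2. Lars2 stood at 36.6 FPKM after withdrawal against 4.23 FPKM with LIF (2.85), the largest ratio of any member in any of the 6 pairs of libraries compared. Those levels correspond to roughly 5167 and 624 fragments, the highest and the lowest for Lars2 in the 5 libraries. Sars, on chromosome 3 from 108227783 to 108248127 (mm9, minus strand), stood at 19.1 FPKM after withdrawal against 8.84 FPKM with LIF (1.03), and Pars2 at 1.52 against 4.26 FPKM (-1.06). Lars2, Sars and Pars2 are 3 of 35 members, while 10.1% of all genes differed 2-fold. With the highest transcript alone Pars2 was at -0.84, short of 2-fold. At 1.5-fold, Cars2 (14.6 against 7.97 FPKM) and Wars2 (1.46 against 0.605 FPKM) were also higher, which makes 5 of 35 members, beside 20.6% of all genes. Vars2, outside these counts, stood at 6.16 FPKM after withdrawal against 1.94 FPKM with LIF (1.28). Median ratios were -0.073 over cytosolic and 0.069 over mitochondrial members, against -0.0055 over all genes.

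In HP cells the same withdrawal left most synthetases within 1.5-fold. Fars2 stood at 6.20 FPKM after withdrawal against 1.71 FPKM with LIF (1.41), beside 6.97 against 4.93 FPKM in normal cells, and was the only member that differed 2-fold, beside 11.9% of all genes. Yars, the cytosolic tyrosyl enzyme on chromosome 4 from 128867004 to 128896851 (mm9, plus strand), stood at 33.0 FPKM after withdrawal against 64.2 FPKM with LIF (-0.94). In normal cells Yars stood at 42.2 FPKM after withdrawal against 52.6 FPKM with LIF. Fars2 and Yars are the 2 of 35 members past 1.5-fold, beside 23.4% of all genes. Lars2 again stood higher, at 21.8 against 14.6 FPKM (0.55), a smaller ratio than in normal cells, and Sars stood lower, at 9.95 against 13.6 FPKM (-0.41). Median ratios were -0.10 over cytosolic and 0.054 over mitochondrial members. Among the 12 cytosolic synthetases known as ATF4 targets, 11 stood below 0 in HP cells and 7 in normal cells, beside 48.6% and 50.9% of all genes. Of the 8 other cytosolic members, 3 stood below 0 in HP cells and 7 in normal cells. In normal cells the lower ratios were thus not particular to the known targets.

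**Figure D2:**
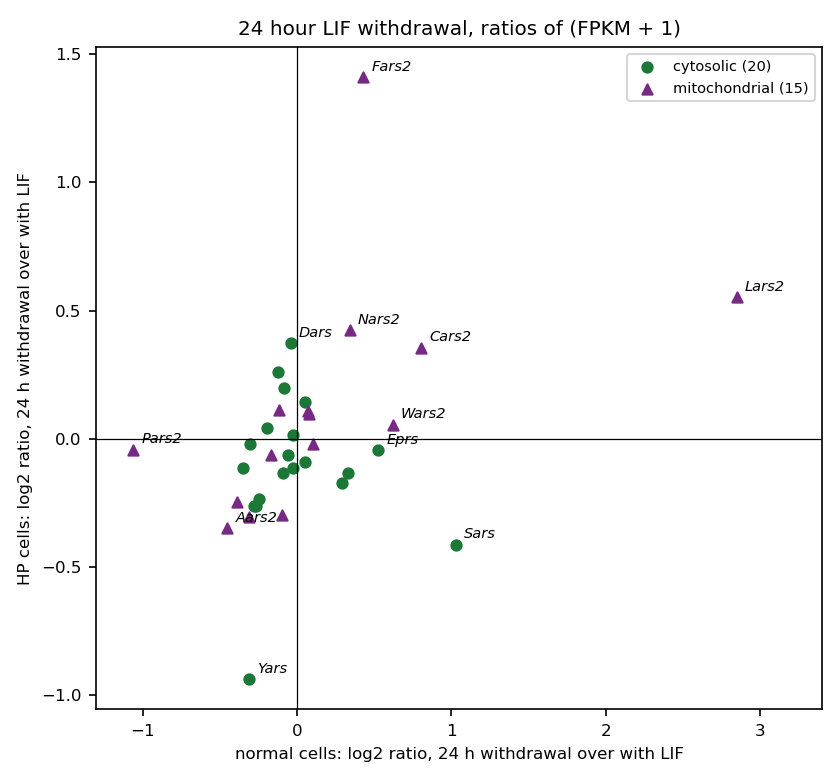
Log2 ratio of FPKM + 1 after the 24 hour withdrawal over with LIF, in normal cells (x axis) and HP cells (y axis), 1 point per member for 20 cytosolic and 15 mitochondrial synthetases. Most points lie near the origin, Lars2 lies far right at 2.85 in normal cells, Fars2 far up at 1.41 in HP cells, and Yars lowest at -0.94 in HP cells.

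Averaged over both cell types in the additive limma fit, no member passed an adjusted p of 0.05 for withdrawal. Over all genes limma called 0, with 1154, or 12.0%, at an unadjusted p under 0.05. Among the members 3 were under an unadjusted p of 0.05, all lower after withdrawal. Mars, the methionyl enzyme, differed by -0.27 ± 0.069 (SE, 4 libraries, limma adjusted p = 0.402), with 67.0 FPKM after withdrawal against 80.6 FPKM with LIF in HP cells and 58.9 against 71.9 FPKM in normal cells. Nars differed by -0.26 ± 0.068 (limma adjusted p = 0.404), with 129 against 155 FPKM in HP cells and 114 against 137 FPKM in normal cells. Aars2, the mitochondrial alanyl enzyme, differed by -0.40 ± 0.11 (limma adjusted p = 0.409), with 12.1 against 15.6 FPKM in HP cells and 11.9 against 16.7 FPKM in normal cells. Ratios of Mars, Nars and Tars, the threonyl enzyme, were -0.26, -0.26 and -0.24 in HP cells and -0.28, -0.26 and -0.25 in normal cells. The fit favours members whose 2 ratios are alike, so this likeness is not separate support for a difference. Lars2 averaged 1.70 ± 0.74 (limma adjusted p = 0.495), with ratios of 0.55 in HP cells and 2.85 in normal cells.

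**Figure D3:**
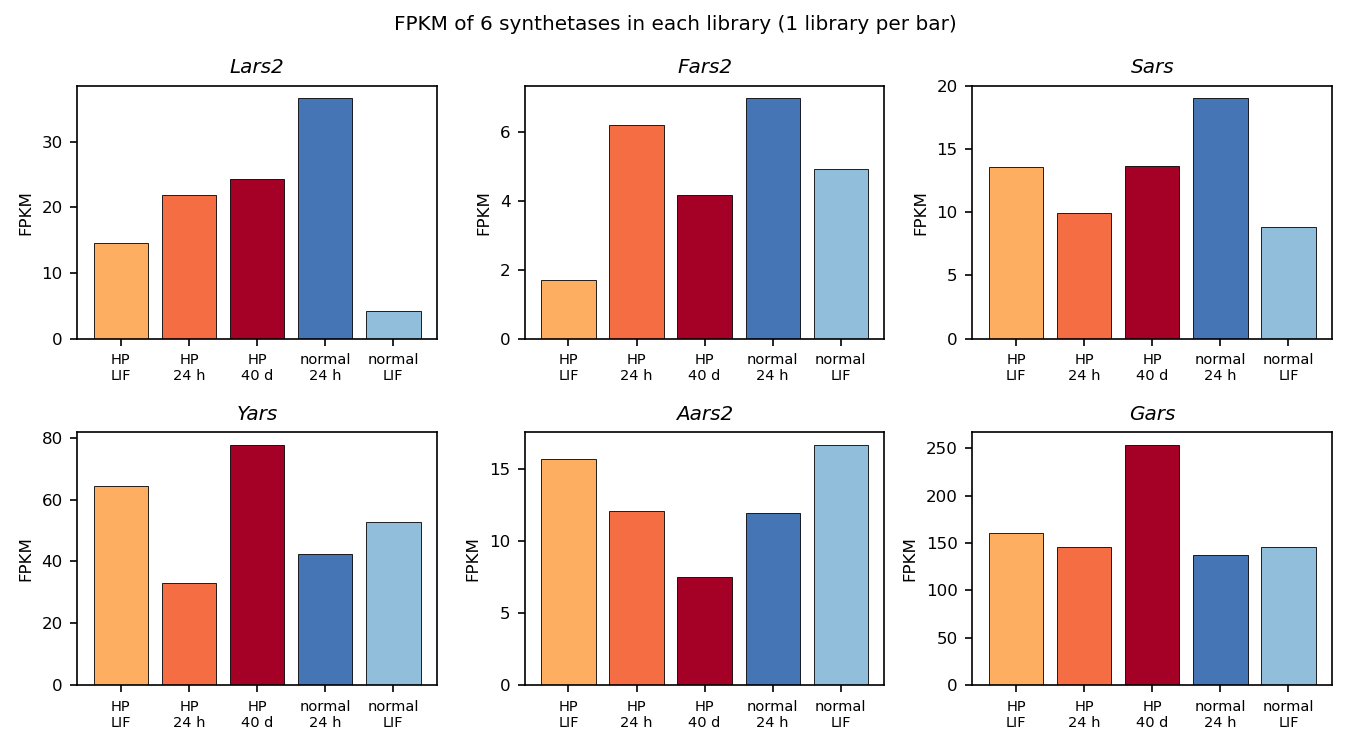
FPKM of Lars2, Fars2, Sars, Yars, Aars2 and Gars in each of the 5 libraries, 1 bar per library and no error bars since each group has 1 library. Lars2 is lowest in normal cells with LIF at 4.23 FPKM, Fars2 lowest in HP cells with LIF at 1.71 FPKM, and Gars highest at 40 days at 254 FPKM.

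At 40 days without LIF the cytosolic synthetases known as ATF4 targets mostly stood higher, and 4 of the others lower. The list of known targets, like the other lists, was chosen with earlier results of these data known. The 12 known targets had a median ratio of 0.59 over HP cells after 24 hours and 0.35 over HP cells with LIF, with 12 and 11 of them above 0, beside 54.6% and 54.7% of all genes. In both counts Wars and Sars are above 0 only because transcripts are summed. The main Wars transcript stood at 42.8 FPKM at 40 days against 44.4 FPKM after 24 hours and 45.0 FPKM with LIF. Another, at 5.87 FPKM at 40 days, was listed at 0 elsewhere. The main Sars transcript was listed at 0 at 40 days, as given above. The 8 other cytosolic members had medians of -0.22 in both comparisons, with 4 and 5 of them below 0, beside 44.8% of all genes in each. Medians over all genes were 0.072 and 0.076. At 1.5-fold in either direction 8 of 35 members differed in each comparison, beside 35.5% of all genes over 24 hours and 40.2% over LIF. The 2 comparisons share the 40 day library, so they are not independent. None of the 5 libraries is from HP cells kept with LIF for 40 days or from normal cells at 40 days. Time in culture and the absence of LIF therefore cannot be told apart. That library also held the higher endoderm, trophoblast and fibroblast marker sums and the lower Nanog and Zfp42 given above, whose part in these ratios was not tested. In bulk RNA, fewer cells of a type and less RNA per cell cannot be told apart.

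Among the known ATF4 targets, Lars, the leucyl enzyme, stood at 107 FPKM at 40 days, against 61.0 FPKM after 24 hours and 53.1 FPKM with LIF in HP cells (0.79 and 0.99). Gars stood at 254 FPKM against 146 and 160 FPKM (0.79 and 0.66), and Cars at 58.8 FPKM against 33.4 and 37.8 FPKM (0.80 and 0.62). For these 3 the 40 day value was also above both normal libraries. Yars stood at 77.8 FPKM at 40 days against 33.0 FPKM after 24 hours (1.21), the only member at least 2-fold different in that pair, but against 64.2 FPKM with LIF (0.27). Nars (0.72 and 0.45) and Mars (0.66 and 0.39), both also higher, passed 1.5-fold over the 24 hour library only, and Aars (0.53 and 0.40), Iars (0.41 and 0.32) and Eprs (0.32 and 0.27) did not pass it. Wars (0.13 and 0.11), Tars (0.21 and -0.026) and Sars (0.42 and 0.010) lay near the median of all genes over the library with LIF. At 1.5-fold, 6 of these 12 were higher over 24 hours and 3 over LIF, beside 22.5% and 24.5% of all genes, so the second share is close to the background.

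The cytosolic members that stood lower at 40 days were Kars (144 FPKM against 228 FPKM after 24 hours and 206 FPKM with LIF, -0.66 and -0.51), Hars, the histidyl enzyme (42.1 against 61.4 and 60.8 FPKM, -0.53 and -0.52), Qars, the glutaminyl enzyme (58.9 against 82.4 and 89.4 FPKM, -0.48 and -0.59), and Farsa, the alpha subunit of the phenylalanyl enzyme (72.7 against 102 and 99.1 FPKM, -0.48 and -0.44). All 4 were below both normal libraries as well. The minor Kars transcript was listed at 0 at 40 days, and with the highest transcript alone Kars was at -0.49 over 24 hours, short of 1.5-fold. The main transcript stood at 144 FPKM at 40 days against 203 FPKM after 24 hours and 186 FPKM with LIF. As for Sars, the listed 0 may be a failed estimate, so part of the lower Kars sum may come from it. Farsb, the beta subunit of the same enzyme, stood at 77.7 FPKM against 60.9 and 65.9 FPKM (0.35 and 0.23), so the beta subunit stood higher and the alpha subunit lower. Dars, Vars and Rars made up the rest of this group, at 0.036, 0.088 and 0.059 over 24 hours and at 0.41, 0.35 and -0.0049 over LIF. The direction did not follow the multisynthetase complex. Its 8 synthetases had medians of 0.19 and 0.29, with Lars and Mars higher and Kars and Qars lower, and the 12 outside it had medians of 0.38 and 0.25.

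Mitochondrial synthetases had a median ratio of 0.019 over 24 hours and 0.12 over LIF, and both medians were below 0 under quantile normalization, at -0.17 and -0.094, while scaling to a common median gave -0.10 and 0.013. None of the 15 was at least 2-fold different on this scale in either pair, beside 17.8% and 22.3% of all genes. Aars2 was lowest in the class against LIF, at 7.46 FPKM at 40 days against 12.1 FPKM after 24 hours and 15.6 FPKM with LIF (-0.63 and -0.98), while its cytosolic counterpart Aars was higher. Over LIF the ratio of Aars2 in FPKM itself was 0.477, past 2-fold. Hars2, for histidine, stood at 7.12 FPKM against 9.18 and 11.6 FPKM (-0.33 and -0.63), lower as was its neighbour Hars. Yars2 stood at 24.7 FPKM against 35.6 and 33.3 FPKM (-0.51 and -0.41), while Yars was higher. Fars2 stood at 4.17 FPKM at 40 days against 6.20 FPKM after 24 hours and 1.71 FPKM with LIF (-0.48 and 0.93), and the second is a ratio of 2.44 in FPKM itself. Lars2 stood at 24.3 FPKM against 21.8 and 14.6 FPKM (0.15 and 0.70). Vars2 stood at 6.89 FPKM against 2.04 FPKM with LIF (1.38).

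**Figure D4:**
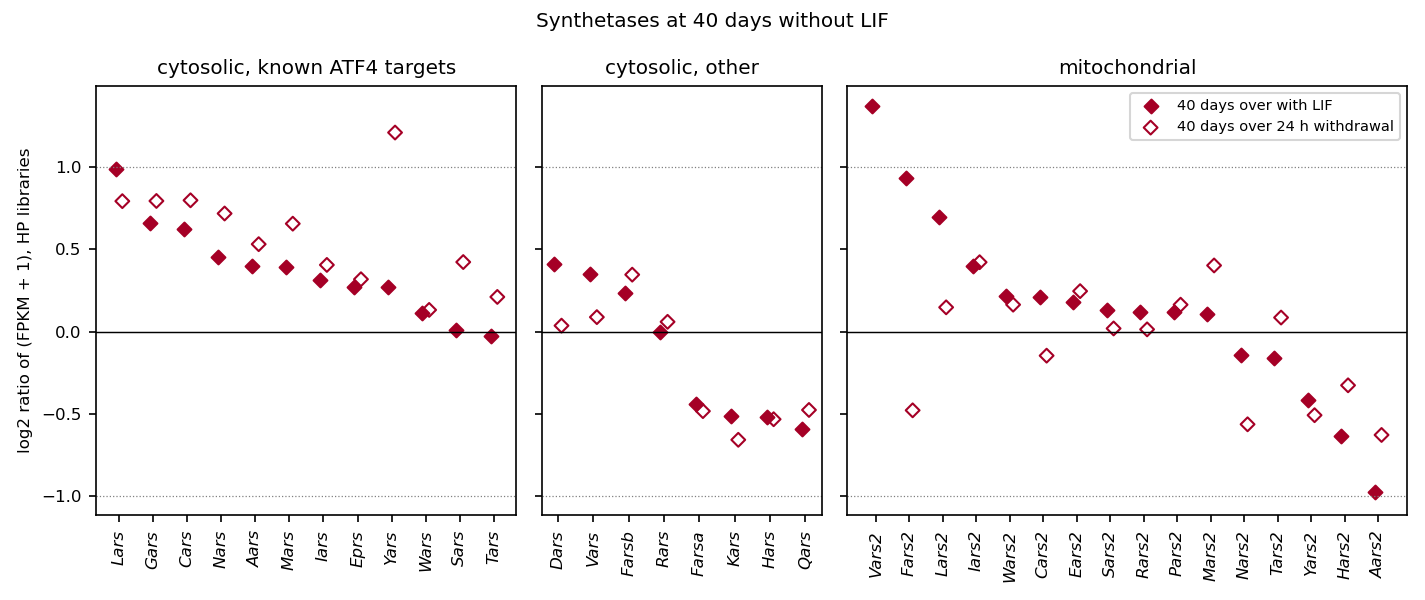
Log2 ratio of FPKM + 1 for each synthetase in HP cells at 40 days over HP cells with LIF (filled) and over HP cells after 24 hours (open), in 3 panels for cytosolic members known as ATF4 targets, other cytosolic members and mitochondrial members. Most points of the first panel lie above 0, while Kars, Hars, Qars and Farsa lie between -0.44 and -0.66 in the second. The dotted lines mark a 2-fold difference. Vars2 has no open point, since its 24 hour value is a hyphen.

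Promoter windows were read from RefSeq (GRCm38.p6), from 250 bases before to 50 after each start, for 13 cytosolic and 14 mitochondrial members. They were searched on both strands for TGATGNAA, the core of the element bound by ATF4 with C/EBP partners. Windows of Cars, Hars, Lars, Nars, Rars, Vars, Wars, Hars2 and Pars2 were not used here. The letters were found in 5 of 13 cytosolic genes (38.5%), namely Aars, Gars, Iars, Tars and Yars, all known ATF4 targets, and in 0 of 14 mitochondrial genes. Of the 8 known targets with a window, Eprs, Mars and Sars did not hold the letters. The letters are held by 3.97% of all 32851 windows available, and by 2.40% of the 7738 tested genes that have a window. Aars holds 2 matches. The windows of Gars and Yars are printed because their 40 day values were among the highest ratios, and that of Tars because it holds the same letters while its ratio over LIF was -0.026. Capitals mark the match, which lies on the other strand in Gars and Tars. Its first printed base is at -30 in Gars, at 4 after the start in Yars and at -15 in Tars.
Gars (chr6:55037751-55038050, plus strand): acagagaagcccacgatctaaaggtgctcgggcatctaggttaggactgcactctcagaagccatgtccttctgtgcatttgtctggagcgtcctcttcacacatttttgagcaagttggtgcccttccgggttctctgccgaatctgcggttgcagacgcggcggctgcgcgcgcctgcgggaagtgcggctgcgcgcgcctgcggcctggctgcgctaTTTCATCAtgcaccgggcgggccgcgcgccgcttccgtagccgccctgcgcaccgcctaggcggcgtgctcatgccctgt
Yars (chr4:129189653-129189952, plus strand): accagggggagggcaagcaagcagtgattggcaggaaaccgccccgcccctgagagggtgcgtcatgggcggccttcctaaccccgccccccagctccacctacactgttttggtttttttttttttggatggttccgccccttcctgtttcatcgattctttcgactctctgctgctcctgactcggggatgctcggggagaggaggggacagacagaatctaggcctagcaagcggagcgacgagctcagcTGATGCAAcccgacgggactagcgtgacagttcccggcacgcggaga
Tars (chr15:11399609-11399908, minus strand): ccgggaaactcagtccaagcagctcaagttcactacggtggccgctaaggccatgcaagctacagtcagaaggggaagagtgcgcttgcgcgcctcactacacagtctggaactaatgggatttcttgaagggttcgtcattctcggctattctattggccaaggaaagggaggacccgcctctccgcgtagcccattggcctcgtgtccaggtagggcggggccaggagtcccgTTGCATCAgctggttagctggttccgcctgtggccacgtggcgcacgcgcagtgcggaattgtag
A match is a description of these letters and not evidence of binding.

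The other genes of the pathway were taken from lists that were chosen with earlier results of these data known. Of 25 ATF4 amino acid targets other than synthetases, 21 could be compared, and at 40 days 13 were at least 2-fold higher over 24 hours and 11 over LIF, with none lower, beside 12.1% and 14.0% of all genes that were higher. Their median ratios were 1.65 and 1.34, larger than those of the synthetases. Chac1, which degrades glutathione, stood at 100.4 FPKM at 40 days against 3.75 FPKM after 24 hours and 5.75 FPKM with LIF (4.42 and 3.91). Slc1a4, a neutral amino acid transporter, stood at 25.4 FPKM against 1.71 and 2.32 FPKM (3.28 and 2.99), and Nupr1, a stress-induced nuclear protein, at 43.1 FPKM against 2.24 and 5.80 FPKM (3.77 and 2.70). Trib3, a pseudokinase that restrains ATF4, stood at 53.4 FPKM against 5.69 and 11.6 FPKM (3.02 and 2.11), and Stc2, a secreted glycoprotein, at 13.7 FPKM against 1.51 and 0.669 FPKM (2.54 and 3.14). In each of these 5 genes the 40 day value lay above those of the other 4 libraries.

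Between cell types 1 of the 21 genes differed 2-fold in each culture, beside the 9.43% and 9.37% of all genes given above. Slc6a9, a glycine transporter, was higher in HP cells with LIF (1.64 against 0.302 FPKM), and Phgdh, the first enzyme of serine synthesis, was higher in HP cells after withdrawal (10.7 against 2.81 FPKM). Ratios of HP over normal cells were above 0 for 18 of 21 genes with LIF and 15 of 21 after withdrawal, beside 44.1% and 46.2% of all genes, with medians of 0.23 and 0.28. After the withdrawal, Phgdh (2.81 FPKM against 9.16 FPKM with LIF), Trib3 (3.07 against 7.95 FPKM) and Nupr1 (1.14 against 3.50 FPKM) were 2-fold lower in normal cells, and Nupr1 in HP cells (2.24 against 5.80 FPKM). These are 3 and 1 of 21 genes, beside 10.1% and 11.9% of all genes at 2-fold in either direction. In HP cells 15 of 21 stood below 0 and in normal cells also 15, beside 48.6% and 50.9% of all genes, with medians of -0.25 and -0.34.

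**Figure D5:**
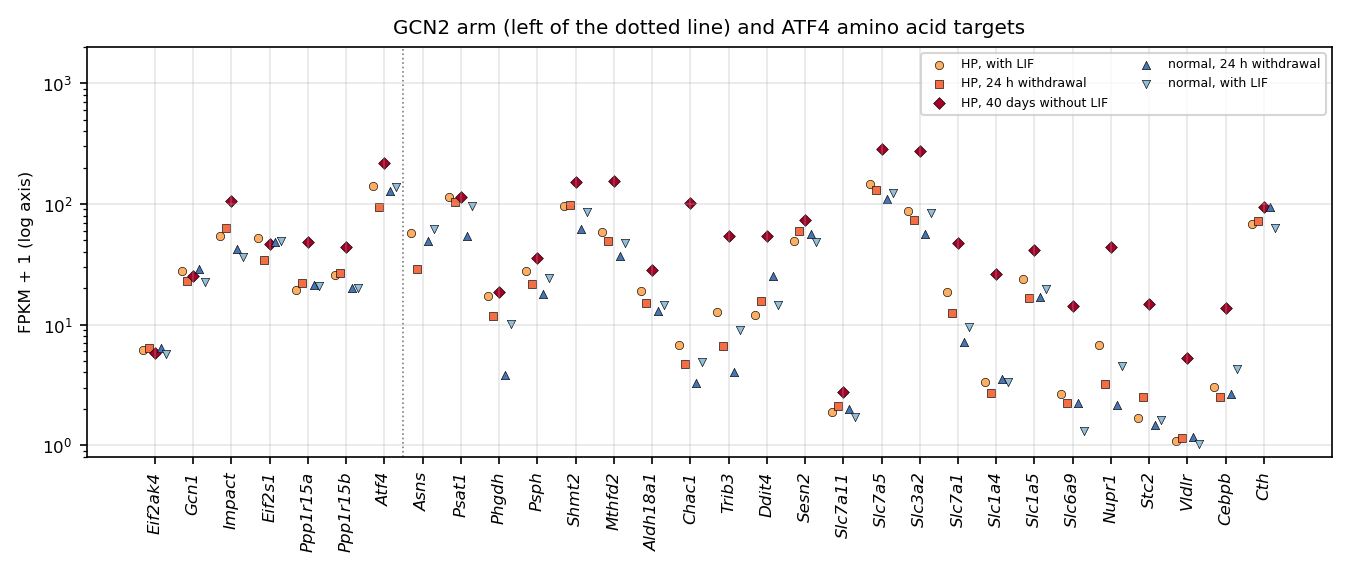
FPKM + 1 (log axis) of the GCN2 arm, left of the dotted line, and of ATF4 amino acid targets other than synthetases, 1 point per library. The 40 day library lies above the other 4 for most targets, as for Chac1 at 100.4 FPKM, and for Atf4 at 218 FPKM. Asns has no 40 day point, since a hyphen stands in its place.

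In the GCN2 arm, Atf4 stood at 218 FPKM at 40 days against 93.0 FPKM after 24 hours and 141 FPKM with LIF in HP cells (1.22 over 24 hours), and Ppp1r15a, a phosphatase subunit that reverses the GCN2 signal, at 47.5 FPKM against 20.9 and 18.4 FPKM (1.15 and 1.32). Eif2ak4, which encodes GCN2 itself, lay between 4.73 and 5.39 FPKM in all 5 libraries. Ddit3, which overlaps Mars, was listed at 0 in every library. Since Cufflinks can list 0 where its estimate failed, this is not taken as absence of Ddit3. The complex scaffolds stayed within 2-fold in each of the 6 pairs, with Eef1e1 at 52.8 FPKM at 40 days against 79.3 and 85.7 FPKM and Aimp2 at 52.3 FPKM against 65.5 and 64.6 FPKM. Of 6 cytosolic elongation genes only Eef1d differed 2-fold, at 40 days over 24 hours and over LIF, beside 17.8% and 22.3% of all genes. Eef1d is a subunit of the exchange factor for the elongation factor that carries charged transfer RNA. It stood at 59.4 FPKM at 40 days against 150 and 144 FPKM in HP cells (-1.32 and -1.26). The 5 partners of mitochondrial charging stayed within 2-fold, as did the 5 editing and selenocysteine genes. Over the 6 pairs 9.37% to 22.3% of all genes differed 2-fold. With lists this short, the scaffolds and elongation genes included, such counts are not read as a result about the list. Among 8 mitochondrial translation factors, Tufm, the mitochondrial elongation factor, was listed at 0 at 40 days and in normal cells after withdrawal, and Mtif3, an initiation factor, at 0 at 40 days and in HP cells after 24 hours, so no ratio is given for the pairs that hold a 0. With LIF, Tufm stood at 8.39 FPKM in HP cells against 2.49 FPKM in normal cells (1.43).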

How the data were processed

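Poly-A RNA libraries (TruSeq, per the labels' protocols) of 5 E14 cultures gave 1 table. The deposited values are FPKM per RefSeq transcript, made by the authors with TopHat2 2.0.7 and Cufflinks 2.0.2 on mm9, per the submitters' processing notes. How fragments that map to several places were treated is not stated there. FPKM is normalized for length and depth, so no count model was run.

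Transcripts were paired with symbols through a RefSeq table (GRCm38.p6), 28066 of 28698, and summed to 22267 genes. Fits left out 337 genes, Vars2 among them, that carry a hyphen. Genes averaging at least 1 FPKM were kept (9590). Ratios used log2(FPKM + 1). Limma 3.58.1 in R 4.3.3 (trend, Benjamini-Hochberg adjustment over all genes) was fitted to 4 libraries with cell type and withdrawal as factors. In simulated data with the fitted spread it called 26% of 2-fold and 68% of 4-fold cell type differences. The simulated noise was independent for each library, used the spread after limma's pooling over genes and held no interaction. In the real fit no gene was called, so these shares may overstate what the fit can find. A member that was not called may therefore still differ. The fit leaves 1 residual degree of freedom, which holds the interaction and library noise. Places are those of GENCODE vM1 on mm9. Depth came from the step in FPKM times length that 1 fragment is worth, over genes with 1 transcript, so it is an estimate, and statements from it cover counting error only.

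The members and all gene lists were chosen with earlier results of these data known. Every member is named, and list genes were named at 2-fold, at most 4 per list and pair. Stc2 came from the pair with LIF and Trib3 from the 24 hour pair. Eif2ak4, Eef1e1 and Aimp2 were named after their values were seen. Alternatives were pseudocount 0.1, no filter, median scaling, quantile normalization, the highest transcript alone, genes with a 0 left out, limma without trend and, added after the values were seen, a 1.5-fold size.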

Additional observations from a re-analysis of the deposited data

Results flagged for a closer look

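4 ratios of the same contrast pointed in opposite directions in the 2 cultures or cell types, with at least 1 of each pair past 1.5-fold. With 1 library per group these differences were not tested. Lars2 was higher in HP than in normal cells with LIF (1.57) and lower after withdrawal (-0.72). Sars was higher in HP cells with LIF (0.57) and lower after withdrawal (-0.87). Pars2 was lower in HP cells with LIF (-0.30) and higher after withdrawal (0.72). After withdrawal, Sars was lower in HP cells (-0.41) and higher in normal cells (1.03). The cell type and withdrawal ratios of a gene use the same 4 libraries, so the entries for Sars are not separate observations.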

How the results depend on the processing

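The labels give no replicate numbers, so no replicate block could be fitted, and the pairing lies in the additive limma fit itself, which compares cell types within each culture and cultures within each cell type. Of 192 recomputed ratios of members past 1.5-fold none changed sign. The pseudocount, the filter and leaving out genes with a 0 could not change a sign. Only the scalings and the highest transcript alone therefore bear on this. Ratios of members short of 1.5-fold are outside this count. Among them, Sars and Wars at 40 days stood above 0 in the main setting and fall below 0 with the highest transcript alone. The limma counts of members called stayed at 0 in every alternative. Scaling to a common median put the 40 day library lower, with medians over all genes of -0.026 over LIF and -0.035 over 24 hours. The class medians became 0.15 for cytosolic members over LIF and 0.20 over 24 hours, 0.013 and -0.10 for mitochondrial members, 0.23 and 0.47 for known ATF4 targets, and -0.35 and -0.35 for the other cytosolic members. Quantile normalization gave -0.094 and -0.17 for the mitochondrial medians. Members at least 2-fold different, none in the main setting for HP over normal cells after withdrawal, numbered 1 with pseudocount 0.1. For HP over normal cells with LIF, 2 in the main setting, they numbered 3 with pseudocount 0.1, and for withdrawal in normal cells, 3 in the main setting, 4 with pseudocount 0.1 and 2 with the highest transcript alone. For 40 days over LIF, 0 in the main setting, they numbered 3 with pseudocount 0.1, 2 under quantile normalization, 1 under median scaling and 1 with the highest transcript alone, and for 40 days over 24 hours, 1 in the main setting, they numbered 2 with the highest transcript alone. In both pairs the member added by the highest transcript alone was Sars, whose main transcript was listed at 0 at 40 days. At 1.5-fold the counts were 4, 5, 5, 2, 8 and 8, in the order HP over normal cells with LIF and after withdrawal, withdrawal in normal and in HP cells, and 40 days over LIF and over 24 hours. With 1 library per group, no alternative shows how far a second culture would differ.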
